A study of Homo sapiens with 12 samples.

Results

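The 10 inflammatory chemokine genes described here were followed by symbol in RNA sequencing of A375, an established human malignant melanoma cell line. They were CXCL8, CXCL1, CXCL2, CXCL3, CXCL5 and CXCL6, whose proteins attract neutrophils, CXCL10, an interferon-inducible attractant of T cells, and CCL2, CCL20 and CCL5, which attract monocytes, CCR6-bearing lymphocytes and dendritic cells, and T cells. All 10 symbols were among the 56609 symbols of the deposited count table, 9 of them had a count in at least 1 library, and 7 were among the 21698 genes with enough counts for a test. The members were taken by symbol.

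The study addressed how cells without MAPKAPK2, which encodes the kinase MK2, respond to drugs that inhibit BET bromodomain proteins. There were 4 groups of 3 replicates: wild-type A375 with DMSO, wild-type A375 with 500 nM JQ1, MAPKAPK2-knockout A375 with DMSO and MAPKAPK2-knockout A375 with 500 nM JQ1, all kept for 48 h in the same serum-containing medium. JQ1 is a BET inhibitor that displaces BET proteins from acetylated chromatin. The titles of the DMSO samples call them untreated, and the treatment field, which says DMSO, was followed. The knockout was made with CRISPR/Cas9, and the labels do not say whether it is 1 clone or a pool, nor whether replicates came from separate cultures, so p-values measure only the spread between these samples.

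MK2 is activated by the stress kinase p38. It phosphorylates proteins that bind AU-rich elements, short repeats of ATTTA in the 3' untranslated region (AUUUA in the mRNA), and chemokine and cytokine mRNAs that carry such elements are known to be stabilised when the pathway is active. Transcription of the CXCL genes is known to be driven by NF-kappaB and AP-1, and melanoma cells are known to secrete CXCL8 and CXCL1.

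The AU-rich stretches are shown first because the members were grouped for this feature. In the longest coding transcripts of GENCODE release 29, CXCL2 carried 10 ATTTA pentamers, CXCL8 9, CXCL3 7 and CXCL1 5, while CCL2 and CXCL10 carried 1 each and CCL5 none. Of the 3' untranslated regions of 18991 genes, 67.2% held at least 1 ATTTA and the median held 2. The window of 30 bases with the most pentamers is printed for the 4 neutrophil attractants that were measurable and for CCL2, with each ATTTA in capitals.
CXCL8: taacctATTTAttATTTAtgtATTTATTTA
CXCL1: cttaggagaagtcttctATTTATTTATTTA
CXCL2: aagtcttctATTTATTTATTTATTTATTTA
CXCL3: ttacgagggttctacttATTTAtgtATTTA
CCL2: tatgccttaagtaatgttaattcttATTTA

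The windows hold 4 pentamers in CXCL8, 3 in CXCL1, 5 in CXCL2, 2 in CXCL3 and 1 in CCL2. Counted from the stop codon, they span bases 644 to 673 in CXCL8, 129 to 158 in CXCL1, 137 to 166 in CXCL2, 143 to 172 in CXCL3 and 111 to 140 in CCL2. The longer form TTATTTATT was found 5 times in CXCL2, 3 times in CXCL1 and once each in CXCL8 and CXCL3, and in 8.2% of all genes. Per kb of 3' untranslated region, CXCL2 had 13.87 pentamers, CXCL3 10.4, CXCL8 7.19 and CXCL1 7.08, against a median of 1.48 over all genes. CXCL5 held 11 pentamers, CXCL6 6 and CCL20 3, without the longer form.

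**Figure D1:**
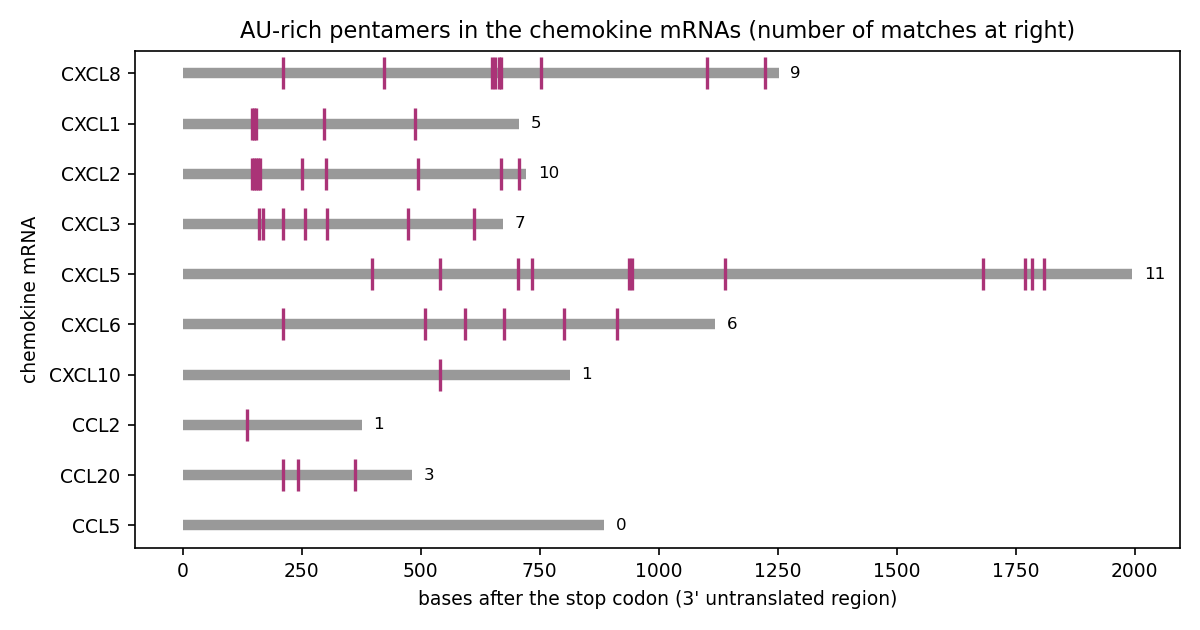
Positions of ATTTA pentamers (ticks) along the 3' untranslated regions (grey bars) of the 10 chemokine mRNAs, in bases after the stop codon, with the number of matches at the right of each bar. CXCL8, CXCL1, CXCL2 and CXCL3 carry 5 to 10 pentamers, partly in clusters, and CCL5 carries none.

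The promoters of the same 4 genes are shown because these genes fell together in wild-type cells. The sequences are the 250 bases before the RefSeq transcription start on the gene's own strand (GRCh38.p14). They lie at chr4:73740319-73740568 (plus strand) for CXCL8, chr4:73869143-73869392 (plus) for CXCL1, chr4:74099196-74099445 (minus) for CXCL2 and chr4:74038690-74038939 (minus) for CXCL3. Capitals mark matches to AP-1 (TGANTCA), to NF-kappaB (GGAATTTCC and the wider NF-kappaB consensus, which overlap) and to a TATA box (TATAAA).
CXCL8: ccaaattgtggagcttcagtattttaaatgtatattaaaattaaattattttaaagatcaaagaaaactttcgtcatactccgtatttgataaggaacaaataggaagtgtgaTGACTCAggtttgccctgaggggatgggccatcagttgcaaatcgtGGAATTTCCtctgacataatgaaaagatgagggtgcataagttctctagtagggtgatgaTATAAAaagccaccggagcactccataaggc
CXCL1: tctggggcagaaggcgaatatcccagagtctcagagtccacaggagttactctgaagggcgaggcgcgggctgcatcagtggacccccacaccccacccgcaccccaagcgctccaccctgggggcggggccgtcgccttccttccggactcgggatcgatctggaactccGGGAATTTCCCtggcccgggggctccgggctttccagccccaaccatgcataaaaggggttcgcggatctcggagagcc
CXCL2: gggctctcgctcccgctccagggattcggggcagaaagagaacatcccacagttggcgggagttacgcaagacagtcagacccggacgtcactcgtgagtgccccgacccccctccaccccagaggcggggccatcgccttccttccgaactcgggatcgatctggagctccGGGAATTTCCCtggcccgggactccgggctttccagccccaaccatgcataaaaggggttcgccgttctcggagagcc
CXCL3: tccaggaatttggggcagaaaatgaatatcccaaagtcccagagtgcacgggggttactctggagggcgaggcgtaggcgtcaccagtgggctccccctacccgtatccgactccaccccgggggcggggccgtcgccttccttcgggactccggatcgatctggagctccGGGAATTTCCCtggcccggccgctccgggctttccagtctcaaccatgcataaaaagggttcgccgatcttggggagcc

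CXCL8 held an AP-1 match at -137 to -131, GGAATTTCC at -91 to -83 and a TATA box at -31 to -26 relative to the start. CXCL1, CXCL2 and CXCL3 each held GGAATTTCC, within matches to the NF-kappaB consensus, between -79 and -68. CXCL5 and CXCL6 held it between -91 and -80. Among 35116 RefSeq promoters of 250 bases, searched on both strands, 0.41% held GGAATTTCC, 5.21% the NF-kappaB consensus and 6.57% the AP-1 motif. The TATA box, searched on the gene's strand, was in 6.8%. CXCL10 held 2 matches to the consensus and an interferon response element (in 3.02% of promoters). It also held GGAATTTCC on the opposite strand, at -176 to -168. CCL20 held 1 match to the consensus. A match describes letters only, and binding was not measured.

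Of the members, 6 lie in the CXC cluster on chromosome 4, in the order CXCL8 (GRCh38 73740506 to 73743716), CXCL6 (73836497 to 73849064), CXCL1 (73869393 to 73871242), CXCL5 (73995642 to 73998779), CXCL3 (74036589 to 74038807) and CXCL2 (74097035 to 74099293). CXCL10 lies farther along that chromosome (76021117 to 76023497). CCL2 (34255218 to 34257203) and CCL5 (35871491 to 35880793) are on chromosome 17, and CCL20 (227805739 to 227817564) is on chromosome 2.

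Libraries held between 25316899 and 34594295 estimated counts. Levels are given in CPM, counts per 1000000 of the library after scaling. With DMSO, MAPKAPK2 itself was at 89.6 ± 2.20 CPM in wild type and 12.4 ± 1.15 in knockout, and with JQ1 at 117.1 ± 4.31 and 14.4 ± 1.61 (SD, n = 3), lower in all 6 knockout libraries. The 9 melanocyte and melanoma markers summed to 511 to 803 CPM per library. Most of that sum was SOX10, at a mean of 437 CPM in wild-type DMSO. In the same group PMEL, MLANA, TYR, DCT and TYRP1 were at 0.513, 0.78, 0.0809, 0.233 and 0.126 CPM. The 12 leukocyte markers summed to 11.1 to 21 CPM, with MPO and MS4A1 at 0 in every library. Most of that sum was CD68 (mean 15.2 CPM in wild-type DMSO and 9.15 in knockout JQ1) and LYZ (2.44 and 1.06). Summed leukocyte markers ranged over 18.5 to 21 CPM in wild type with DMSO and 15.9 to 18.7 with JQ1, and over 14 to 19.6 in knockout with DMSO and 11.1 to 12 with JQ1. The 6 fibroblast markers summed to 22.6 to 23.3 CPM in wild type with DMSO and 14.3 to 16.9 with JQ1. In knockout they summed to 17.4 to 18.8 with DMSO and 9.81 to 12.1 with JQ1. With JQ1 in wild type 4 of the 5 tested were called lower (16.2% of all genes). PDGFRA was called higher, by a log2 fold change of 0.64 (edgeR adjusted p 0.00161, with 16.9% of all genes higher). The 3 endothelial markers summed to 1.95 to 2.35 CPM in wild type with DMSO and 0.812 to 1.93 in the other groups. The 4 epithelial markers summed to 1.49 to 2.14 CPM in wild type with DMSO, 0.0406 to 0.317 in knockout with JQ1 and 0.532 to 1.57 in the other two groups, with CDH1 at 0 throughout. The part of these markers in the chemokine results was not tested, and in bulk RNA fewer expressing cells and less RNA per cell cannot be told apart. Knockout JQ1 replicate 3 stood apart: its chi-square per degree of freedom against the other two was 23.81 and 25.14, against 3.211 to 7.047 for other replicate pairs, and 14.58% of its counts fell in 4 noncoding RNAs, against 9.419% to 12.32% elsewhere. Values without it are given beside the chemokine changes under JQ1 in knockout and of the knockout under JQ1, and beside the other genes named for them.

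In wild-type DMSO, CXCL8 was the member with the highest level per transcript length, at 18.1 ± 1.16 CPM per kb, followed by CXCL1 at 7.60 ± 0.464 CPM per kb (SD, n = 3). CCL2 (1.46 ± 0.274) and CXCL3 (1.25 ± 0.101) came next in CPM per kb and did not differ beyond their spread. CXCL2 (0.88 ± 0.121 CPM per kb), CCL5 (0.582 ± 0.14), CCL20 (0.421 ± 0.19) and CXCL10 (0.144 ± 0.0707) followed, and of these only CCL5 and CCL20 overlapped within 1 SD. In knockout JQ1 the order was CXCL8 at 1.09 ± 0.317 CPM per kb, CXCL1 at 0.793 ± 0.31, CCL5 at 0.53 ± 0.17, CXCL2 at 0.386 ± 0.0862 and CXCL3 at 0.305 ± 0.189, with each overlapping its neighbour.

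CCL2 reached the test through the wild-type DMSO libraries alone, and a gene that passes only through its highest group is bound to show a difference, so counts are given over the other 6 tested chemokines. In wild-type cells JQ1 lowered 4 of these 6, CXCL8, CXCL1, CXCL2 and CXCL3, and raised none (edgeR's quasi-likelihood test, Benjamini-Hochberg adjusted p of at most 0.05 over all genes). The same test called 16.2% of all tested genes lower and 16.9% higher with JQ1. Loss of MAPKAPK2 in DMSO lowered 3 of the 6, CXCL8, CXCL1 and CXCL2, where 4.44% of all tested genes were called lower and 3.47% higher. In knockout cells JQ1 lowered CXCL8, CXCL1 and CXCL3, 3 of the 6, against 17.8% of all genes lower and 16.7% higher, and without knockout JQ1 replicate 3 only CXCL8 and CXCL1 were called. Under JQ1 the knockout had lower CXCL8 and CXCL1 than wild type, 2 of the 6, against 5.56% of all genes lower and 3.01% higher.

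The median log2 fold change over the 6 was -1.14 for JQ1 in wild type, -1.51 for JQ1 in knockout, -0.87 for the knockout in DMSO and -0.32 for the knockout in JQ1. Over all tested genes the medians were -0.034, -0.0035, -0.0049 and -0.0015. With CCL2 included, the medians were -1.18, -1.31, -0.99 and -0.37. CCL20 met the count minimum in DMSO libraries only, 1 in wild type and 2 in knockout. The filter therefore favours a lower CCL20 value with JQ1, and CCL20 is a middle value of both JQ1 medians over the 6. The comparisons share groups: both wild-type DMSO comparisons use the same 3 libraries, so their values are given side by side and are not independent.

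**Figure D2:**
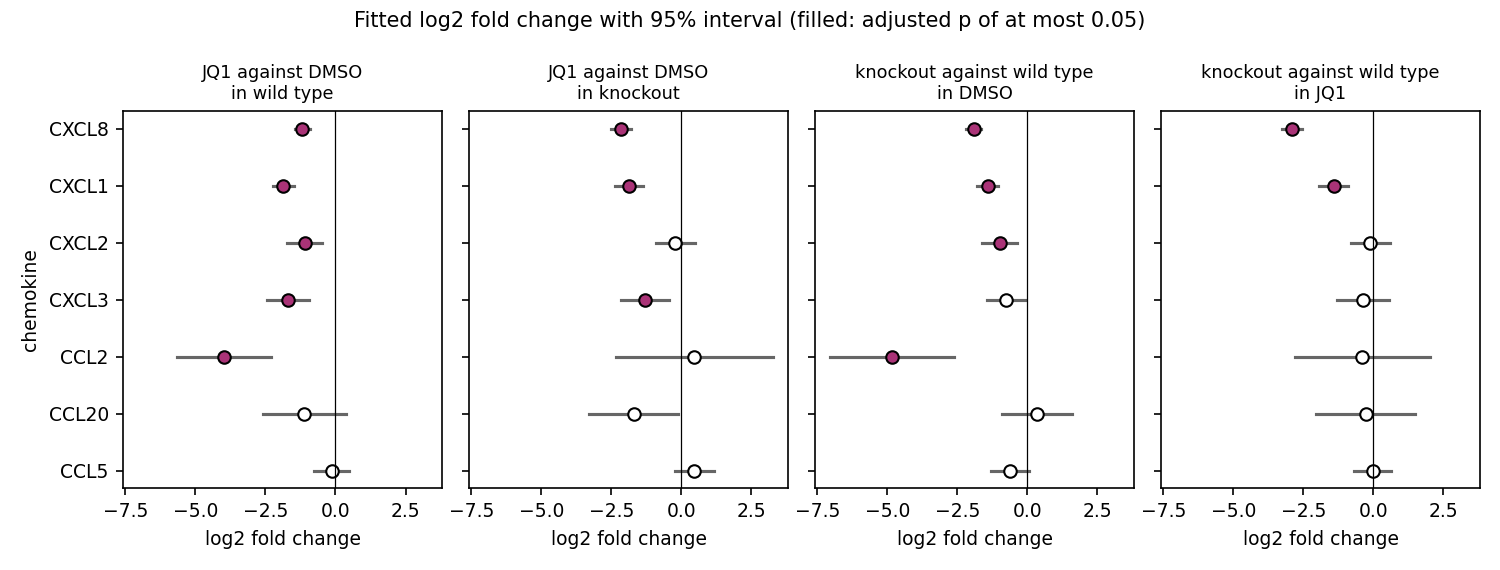
Log2 fold change (x axis) with 95% interval for the 7 tested chemokines (y axis) in the 4 comparisons, with filled points at an adjusted p of at most 0.05. CXCL8 and CXCL1 lie below 0 in every panel, and the CCL2 points have the widest intervals because few counts remained outside wild-type DMSO. CCL2 reached the test through wild-type DMSO alone, so its filled points are not read as calls.

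CXCL8, which encodes interleukin-8, a potent neutrophil attractant, was at 30.04, 29.5 and 33.2 CPM in the wild-type DMSO libraries (replicates 1 to 3). It was at 12.8, 13.7 and 14.5 CPM in wild-type JQ1 and at 8.79, 7.38 and 8.46 CPM in knockout DMSO. In knockout JQ1 it was at 2.32, 1.99 and 1.27 CPM, from 61, 49 and 40 counts. The 4 groups were fully separated, from wild-type DMSO at the top to knockout JQ1 at the bottom.

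JQ1 lowered CXCL8 by a log2 fold change of -1.18 in wild type (SE 0.12, edgeR adjusted p 4.02e-06), and the knockout lowered it by -1.91 in DMSO (SE 0.13, adjusted p 2.35e-07). The JQ1 change in knockout cells was -2.16 (SE 0.17, adjusted p 1.27e-07). The knockout change under JQ1 was -2.90 (SE 0.16, adjusted p 2.22e-08). Without knockout JQ1 replicate 3, the lowest of its group, the last pair of values were -1.92 and -2.66.

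The JQ1 change of CXCL8 differed between genotypes by -0.98 (95% interval -1.42 to -0.54, unadjusted p 0.000249), which missed the threshold after adjustment over all genes (edgeR adjusted p 0.0972). DESeq2 gave -0.996 with an adjusted p of 0.000659, and edgeR without a low-count filter gave -0.999 with an adjusted p of 0.000251. The difference passed in 3 of 24 alternative analyses and missed in 21, with adjusted p up to 0.2975. Without knockout JQ1 replicate 3 the difference was -0.75 (adjusted p 0.0672). As shares of wild-type DMSO, CXCL8 stood at 44.2% with JQ1 alone, 26.6% with knockout alone and 6.01% with both, where the product of the single shares is 11.7%.

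CXCL1, which signals through CXCR2, was at 8.70, 7.76 and 8.55 CPM in wild-type DMSO and at 2.58, 2.52 and 1.83 CPM in wild-type JQ1. Knockout DMSO libraries had 2.98, 3.30 and 3.05 CPM, and knockout JQ1 libraries 1.22, 0.852 and 0.538 CPM. Wild-type DMSO was the highest group and knockout JQ1 the lowest, and wild-type JQ1 lay below knockout DMSO without overlap.

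JQ1 lowered CXCL1 by -1.86 on the log2 scale in wild type (SE 0.18, edgeR adjusted p 2.58e-06) and by -1.86 in knockout (SE 0.23, adjusted p 1.58e-05). The knockout change was -1.42 in DMSO (SE 0.18, adjusted p 0.000127) and -1.42 in JQ1 (SE 0.24, adjusted p 0.00108). The difference of the JQ1 changes was -0.0011, with a 95% interval of -0.64 to 0.63 (edgeR adjusted p 0.9996). Differences within that interval are not excluded. CXCL1 stood at 10.4% of wild-type DMSO with knockout and JQ1 together, where the product of its single shares of 27.7% and 37.3% is 10.3%. Without knockout JQ1 replicate 3 the changes under JQ1 in knockout and of the knockout under JQ1 were -1.58 and -1.14, both past the threshold.

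**Figure D3:**
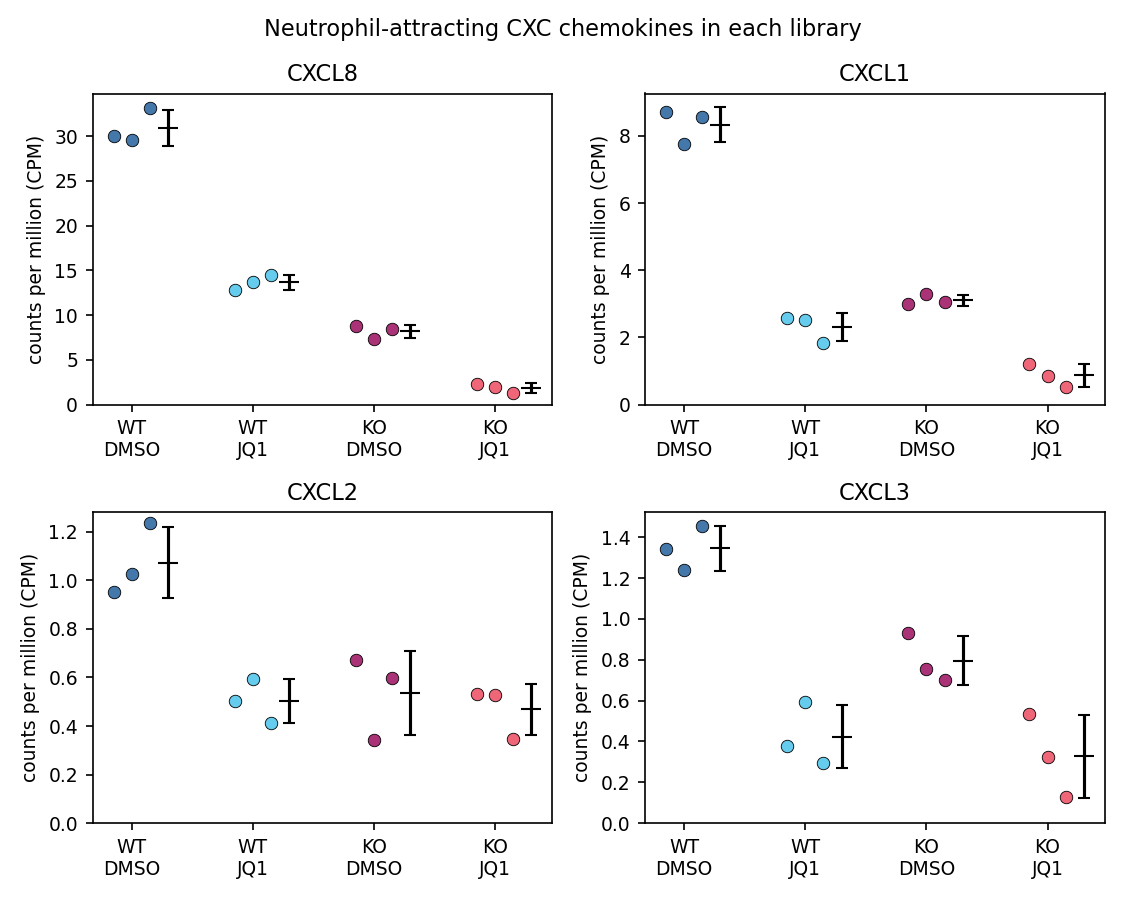
CPM (y axes, each from 0) of CXCL8, CXCL1, CXCL2 and CXCL3 in every library (points), by genotype and treatment (x axis), with group mean and SD (bars, n = 3). CXCL8 and CXCL1 fall with JQ1 and with the knockout and are lowest with both, while the CXCL2 groups other than wild-type DMSO overlap.

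CXCL2, another CXCR2 ligand, was at 0.954, 1.03 and 1.24 CPM in wild-type DMSO. It was at 0.503, 0.594 and 0.414 CPM in wild-type JQ1. Knockout libraries had 0.673, 0.343 and 0.597 CPM with DMSO and 0.533, 0.528 and 0.348 CPM with JQ1, and outside wild-type DMSO every library had 10 to 21 counts. Wild-type DMSO lay above the other groups, which overlapped each other.

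CXCL2 changed by -1.10 with JQ1 in wild type (SE 0.29, edgeR adjusted p 0.00795) and by -0.99 with the knockout in DMSO (SE 0.29, adjusted p 0.0450). The latter call sat at the threshold and was lost in 17 of 23 alternative analyses, with adjusted p up to 0.181. In knockout cells the JQ1 change was -0.21 (95% interval -0.90 to 0.48, adjusted p 0.657), and under JQ1 the knockout change was -0.11 (-0.80 to 0.59, adjusted p 0.901). These values were -0.02 and 0.09 without knockout JQ1 replicate 3. The difference of the JQ1 changes was 0.88 (95% interval -0.04 to 1.81, adjusted p 0.618). CXCL2 stood at 43.8% of wild-type DMSO with knockout and JQ1 together, beside 46.9% with JQ1 alone and 50.1% with knockout alone. The product of these single shares is 23.5%.

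CXCL3, also a CXCR2 ligand, was at 1.34, 1.24 and 1.46 CPM in wild-type DMSO, at 0.377, 0.594 and 0.296 CPM in wild-type JQ1 and at 0.930, 0.755 and 0.702 CPM in knockout DMSO. In knockout JQ1 it was at 0.533, 0.325 and 0.127 CPM, from 14, 8 and 4 counts. Both JQ1 groups lay below both DMSO groups.

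JQ1 lowered CXCL3 by -1.69 in wild type (SE 0.35, edgeR adjusted p 0.00152) and by -1.31 in knockout (SE 0.40, adjusted p 0.0167). Without knockout JQ1 replicate 3 the change in knockout was -0.88 (adjusted p 0.0673), and without knockout DMSO replicate 1 its adjusted p was 0.0606. The knockout value in DMSO was -0.76 (95% interval -1.44 to -0.07, unadjusted p 0.0313, adjusted p 0.193), although its libraries did not overlap those of wild type. It passed in 1 of 23 alternative analyses, the fit of only the groups compared (-0.75, adjusted p 0.0442). Under JQ1 it was -0.37 (-1.29 to 0.54, adjusted p 0.697), and 0.06 without knockout JQ1 replicate 3. CXCL3 stood at 24.4% of wild-type DMSO with knockout and JQ1 together, where the product of its single shares of 31.4% and 59.1% is 18.5%.

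CXCL1, CXCL2 and CXCL3 are close copies, and reads could be divided among them in counting. Their coding sequences were identical at 93.5% of bases for CXCL1 and CXCL2, 90.7% for CXCL1 and CXCL3 and 94.4% for CXCL2 and CXCL3, against 52.5% to 54.1% between each and CXCL8. Of the 31-base words of the whole transcripts, 15.5% in CXCL1, 19.8% in CXCL2 and 9.6% in CXCL3 recurred in the other two, and none recurred in CXCL8. Counted as 1 gene, the sum of the 3 changed by -1.74 with JQ1 in wild type (edgeR adjusted p 6.40e-06), -1.43 with JQ1 in knockout (0.000116), -1.27 with the knockout in DMSO (0.000426) and -0.97 with the knockout in JQ1 (0.0128). The JQ1 change of the sum in knockout was -1.15 (edgeR adjusted p 0.000132) and its knockout change in JQ1 was -0.69 (0.0264) without knockout JQ1 replicate 3. The call for the knockout in JQ1 was lost without wild-type JQ1 replicate 1 (adjusted p 0.0505) or replicate 2 (0.0602).

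CCL2, a monocyte attractant whose mRNA held 1 ATTTA, had 44, 28 and 34 rounded counts in the wild-type DMSO libraries. It had 5, 0 and 1 counts in wild-type JQ1. Knockout libraries had 2, 0 and 1 counts with DMSO and 0, 1 and 3 with JQ1. Counts above 5 were seen in wild-type DMSO alone. CCL2 was 16.7-fold higher in wild-type DMSO than in wild-type JQ1 (106 against 6 counts, 95% counting interval 7.41 to 46.4, scaled for library size). It was higher than in knockout DMSO by a ratio of 32.0 (106 against 3 counts, 10.6 to 157.4). These intervals cover counting error only.

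No p-value is given for CCL2, since only its wild-type DMSO libraries met the count minimum. The remaining comparisons rest on 3 to 6 counts a group: the ratio of knockout DMSO to knockout JQ1 was 0.697 (0.102 to 4.12), and that of wild-type JQ1 to knockout JQ1 was 1.34 (0.317 to 6.44). A further fall was not detectable at this depth.

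**Figure D4:**
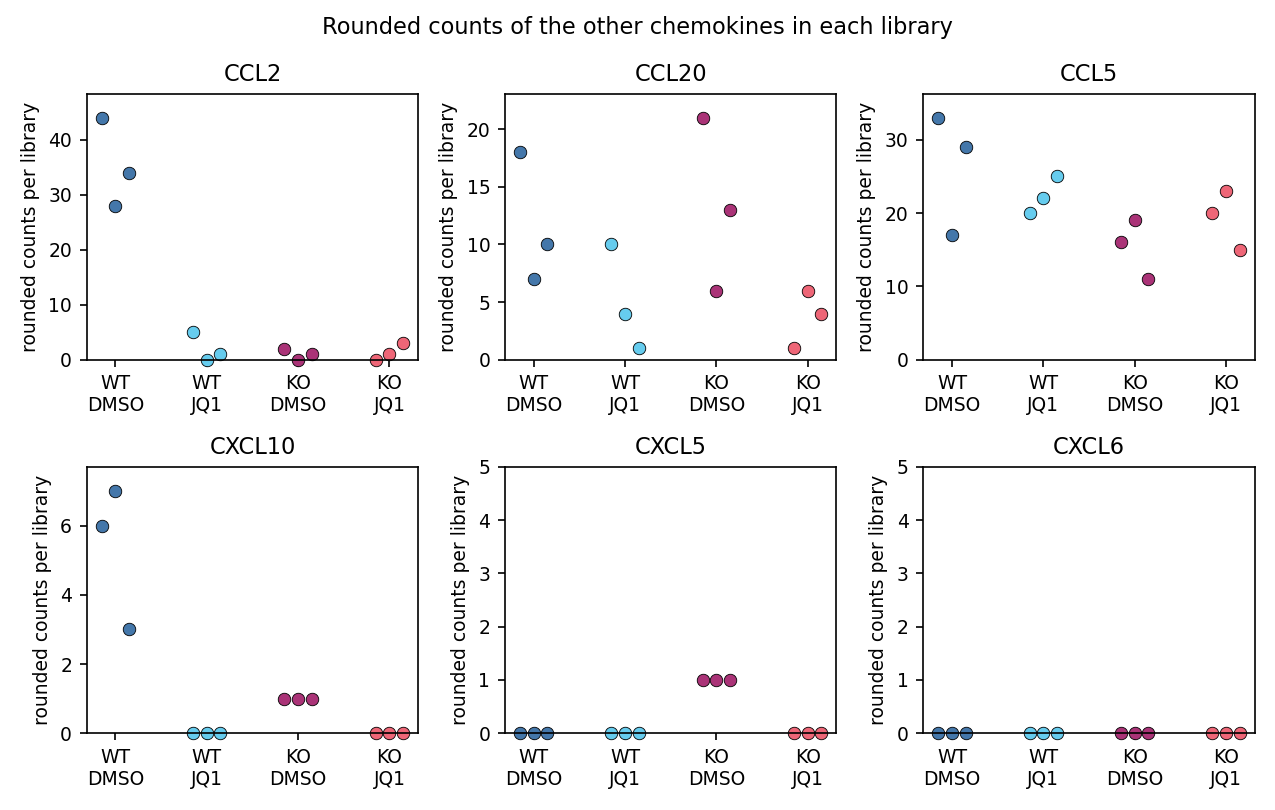
Rounded counts per library (y axis) of CCL2, CCL20, CCL5, CXCL10, CXCL5 and CXCL6 by genotype and treatment (x axis), 1 point per library. CCL2 had 28 to 44 counts in wild-type DMSO and 0 to 5 elsewhere, CXCL10 had 3 to 7 and 0 to 1, and CCL5 had 11 to 33 with overlapping groups.

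CCL20, the ligand of CCR6, had 18, 7 and 10 rounded counts in wild type with DMSO and 10, 4 and 1 with JQ1. In knockout it had 21, 6 and 13 counts with DMSO and 1, 6 and 4 with JQ1. Replicates of 1 group differed up to 10-fold in counts, and no comparison separated the groups. No CCL20 comparison passed the threshold: JQ1 gave -1.11 in wild type (95% interval -2.59 to 0.37, edgeR adjusted p 0.229) and -1.71 in knockout (-3.29 to -0.13, adjusted p 0.0713). The knockout value in DMSO was 0.33 (-0.92 to 1.58, adjusted p 0.825) and in JQ1 -0.27 (-2.04 to 1.49, adjusted p 0.896). Without knockout JQ1 replicate 3 the values under JQ1 in knockout and of the knockout in JQ1 were -1.66 and -0.23. The JQ1 value in knockout passed without a low-count filter (adjusted p 0.0196) and without knockout DMSO replicate 2 (0.0437). CCL20 met the count minimum in DMSO libraries only, 1 in wild type and 2 in knockout. Lower values with JQ1 were thus favoured in advance, and neither pass is read as a call.

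CCL5, a T cell attractant whose mRNA held no ATTTA, was at 0.984, 0.602 and 0.797 CPM in wild-type DMSO and 0.628, 0.816 and 0.740 CPM in wild-type JQ1. It was at 0.513, 0.652 and 0.386 CPM in knockout DMSO and 0.762, 0.933 and 0.475 CPM in knockout JQ1. The groups overlapped in every comparison. JQ1 gave -0.14 in wild type (95% interval -0.77 to 0.50, edgeR adjusted p 0.765) and 0.46 in knockout (-0.23 to 1.15, adjusted p 0.303). The knockout gave -0.62 in DMSO (-1.29 to 0.05, adjusted p 0.290) and -0.03 in JQ1 (-0.68 to 0.63, adjusted p 0.979). Without knockout JQ1 replicate 3 the JQ1 value in knockout was 0.71 (adjusted p 0.115) and the knockout value in JQ1 was 0.22.

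CXCL10 was too low for the test, with 6, 7 and 3 counts in wild-type DMSO, 1 in each knockout DMSO library and 0 in all 6 JQ1 libraries. With its 16 wild-type DMSO counts taken as exact, their ratio to the upper limit that 0 counts allow in wild-type JQ1 (3 counts per group) was 5.03. Counting error of the 16 counts is left out, so 5.03 is not a lower limit of the fold. The ratio of wild-type to knockout DMSO was 4.82 (95% counting interval 1.38 to 25.8). CXCL5 had 1 count in each knockout DMSO library and 0 elsewhere, and CXCL6 had 0 in every library. A group at 0 allows a mean of up to 0.0306 CPM (wild-type DMSO) to 0.0364 CPM (knockout JQ1).

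Of the 6 tested members other than CCL2, wild-type JQ1 and wild-type DMSO did not overlap for CXCL8, CXCL1, CXCL2 and CXCL3, all lower, as for 26.0% of all tested genes. The knockout and wild-type DMSO groups did not overlap for the same 4, all lower, where 14.7% of all genes were so. In knockout cells JQ1 and DMSO did not overlap for CXCL8, CXCL1 and CXCL3 (22.0%). Under JQ1, knockout and wild type did not overlap for CXCL8 and CXCL1, both lower (12.4%).

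The interaction test asked whether the JQ1 change depends on genotype. None of the tested members passed by edgeR, where 0.134% of all genes did. At an unadjusted p under 0.05 there was 1 member besides CCL2, CXCL8, where 8.37% of all genes reached it. DESeq2 called 1, CXCL8, where over all tested genes it called 84 lower and 32 higher. The values for CXCL1 and CXCL2 stand above, and those of CXCL3 (0.38), CCL20 (-0.60) and CCL5 (0.60) did not pass.

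Genes beside the CXC cluster were read for comparison. From RASSF6 to BTC the annotation lists 26 genes on chromosome 4, of which the platelet chemokine genes PF4, PF4V1 and PPBP were at 0 in every library. Beyond CXCL2, MTHFD2L gave 0.18 with JQ1 in wild type (SE 0.30, edgeR adjusted p 0.687) and -0.29 with the knockout in DMSO (SE 0.31, adjusted p 0.679). AC093677.2, annotated as an antisense gene and uncertain because strand use in the counting is not given in the sources used here, fell with JQ1 by -0.65 in wild type (SE 0.21, adjusted p 0.0287) and by -0.82 in knockout (SE 0.23, adjusted p 0.00992; -0.74 without knockout JQ1 replicate 3). AREG, a ligand of the EGF receptor, fell with the knockout in DMSO by -1.66 (SE 0.39, adjusted p 0.0112), and its JQ1 value in wild type was -0.47 (adjusted p 0.307). EREG and BTC, which encode related ligands, passed in none of the 4 comparisons.

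**Figure D5:**
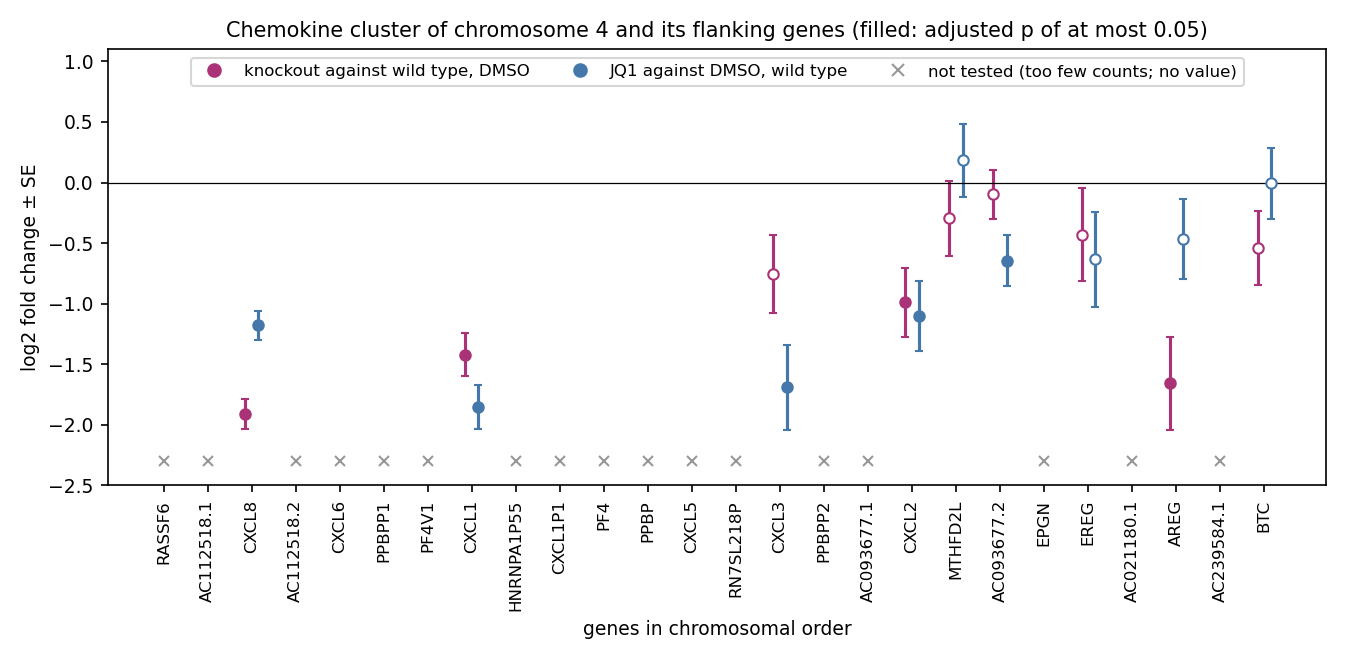
Log2 fold change with SE (y axis) of the genes of the chromosome 4 chemokine cluster and its flanks in their order along the chromosome (x axis), for knockout against wild type in DMSO and JQ1 against DMSO in wild type; filled points passed an adjusted p of 0.05 and crosses mark genes with too few counts. CXCL8, CXCL1 and CXCL2 are filled in both comparisons, MTHFD2L in neither, and AREG in the knockout comparison alone.

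The genes most like CXCL8 across the 12 libraries were sought among 15409 genes whose mean level was 1 CPM or more, by the root mean square difference of their centred log2 CPM. The nearest was IL24 (0.306), followed by A2M (0.318), ACP5 (0.325), CD40 (0.395) and C3 (0.398). IL24, a cytokine gene that lies near MAPKAPK2 on chromosome 1 (206897443 to 206904139, MAPKAPK2 at 206684944 to 206734283), was at 470 CPM in wild type with DMSO and 186 with JQ1, and at 113 CPM in knockout with DMSO and 39.5 with JQ1. CXCL1 was at a distance of 0.587 from CXCL8, the 19th nearest when ranked over all tested genes, without the minimum of 1 CPM. Genes near CXCL1 by the same measure included OLFML2A (0.269), PCSK1 (0.285), ADGRF1 (0.294) and RYR2 (0.297), and CXCL3 was at 0.512.

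Related gene lists were read in the same fit. Of 37 other chemokine ligands 5 had enough counts. CXCL16, the membrane-bound ligand of CXCR6, fell with JQ1 in wild type by -0.88 (SE 0.19, edgeR adjusted p 0.00246) and in knockout by -1.17 (SE 0.18, adjusted p 0.000154), and it was higher in the knockout in DMSO by 0.74 (SE 0.18, adjusted p 0.0155). Its JQ1 change in knockout was -1.10 without knockout JQ1 replicate 3. CX3CL1, the fractalkine gene, was lower in the knockout in DMSO by -1.03 (SE 0.22, adjusted p 0.00909). CCL28, a mucosal chemokine, fell with JQ1 in wild type by -0.43 (SE 0.11, adjusted p 0.00923). Of 23 chemokine receptors 5 were tested. CXCR6 alone passed, lower with JQ1 in wild type (-0.48, edgeR adjusted p 0.0427) and in knockout (-0.48, adjusted p 0.0450, or 0.0538 without knockout JQ1 replicate 3). This is 20% of the tested receptors, near the 16.2% and 17.8% of all genes called lower with JQ1 in wild type and in knockout. CXCR1, a CXCL8 receptor, was at 0 in every library.

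Among 17 other cytokine and inflammatory genes listed as AU-rich, 12 were tested. JQ1 in wild type lowered 6 of the 12 and raised 2 (all genes: 16.2% lower, 16.9% higher), and the knockout in DMSO lowered 7 and raised none (all genes: 4.44% lower, 3.47% higher). Their median log2 fold changes were -0.59 and -0.50. IL24, which lies near MAPKAPK2 on chromosome 1, is among them. It fell with the knockout in DMSO by -2.06 (SE 0.07, edgeR adjusted p 2.6e-10), and the part of its position was not tested. IL1B is included in these medians and among the genes called lower in both comparisons. Only its wild-type DMSO libraries met the count minimum (0.496 to 1.02 CPM, at most 0.186 in any other library). Like CCL2, it was therefore bound to show a difference. ICAM1, an adhesion molecule for leukocytes, went with JQ1 from 54.5 ± 1.23 to 23.5 ± 2.15 CPM in wild type and from 37.8 ± 2.91 to 8.51 ± 1.12 CPM in knockout (SD, n = 3). Its JQ1 change was larger in knockout, with an interaction of -0.93 (SE 0.13, edgeR adjusted p 0.0149), the single call of that list. It was -1.05 (adjusted p 0.00225) without knockout JQ1 replicate 3. IL11, a cytokine of the IL-6 family, rose with JQ1 by 1.63 in wild type (SE 0.13, adjusted p 5.20e-07) and 1.95 in knockout (SE 0.14, adjusted p 1.05e-07; 1.78 without knockout JQ1 replicate 3). TNFAIP3, an inhibitor of NF-kappaB signalling, fell with the knockout in DMSO by -0.95 (SE 0.15, adjusted p 0.000815).

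Of 17 genes of the p38 to MK2 pathway and of AU-rich element binding proteins, all tested, the knockout in DMSO changed none at the adjusted threshold (all genes: 4.44% lower, 3.47% higher), and JQ1 in wild type raised 2 and lowered 3 (16.9% and 16.2% of all genes). ZFP36, whose protein promotes decay of AU-rich mRNAs and is inhibited by MK2, was raised by JQ1 by 0.46 in wild type (SE 0.12, edgeR adjusted p 0.00777) and 0.49 in knockout (SE 0.12, adjusted p 0.00528; 0.33 without knockout JQ1 replicate 3). MAPKAPK3, which encodes the closest relative of MK2, fell with JQ1 by -0.47 in wild type (adjusted p 0.000586) and by -0.89 in knockout (adjusted p 1.78e-06; -0.94 without that library).

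Of 20 NF-kappaB, AP-1 and C/EBP genes, all tested, JQ1 raised 9 and lowered 1 in wild type, where 16.9% of all genes rose and 16.2% fell. In knockout JQ1 raised 9 and lowered 3, also without knockout JQ1 replicate 3 (all genes: 16.7% higher, 17.8% lower). The AP-1 genes FOS (0.95, SE 0.09, edgeR adjusted p 1.44e-06) and JUN (1.08, SE 0.15, adjusted p 6.47e-05) rose with JQ1 in wild type. BIRC3, an NF-kappaB target, was the single gene of this list called with the knockout, lower by -0.91 in DMSO (SE 0.10, adjusted p 2.71e-05; 4.44% of all genes lower) and by -1.26 in JQ1 (SE 0.10, adjusted p 1.71e-06; 5.56%). The latter was -1.16 without knockout JQ1 replicate 3, where 4 genes of the list were called lower. Of 12 interferon-stimulated genes, the class to which CXCL10 belongs, 11 were tested. JQ1 lowered 6 and raised 3 in wild type (all genes: 16.2% and 16.9%), with a median of -0.77, and the knockout in DMSO lowered 1 (4.44% of all genes), OAS2, an antiviral enzyme gene, by -0.62 (SE 0.10, adjusted p 0.00110). OAS2 fell with JQ1 by -2.40 in wild type (SE 0.11, adjusted p 1.66e-09).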

How the data were processed

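RNA of 12 A375 samples was depleted of ribosomal RNA and made into directional libraries, per the labels. Trim Galore, cutadapt, kallisto, DESeq2 and build GRCh38.p10 are named in the submitters' processing notes without roles. The authors deposited estimated counts per gene symbol and a normalized signal for 32828 genes; how that signal was made is not given in the sources used here, and it entered alternatives only. No column was left without a sample. Estimated counts were rounded, since the plan assumed whole counts. Low-count genes were removed with filterByExpr (minimum count 10, total 15, equal to 0.339 CPM in 3 libraries), libraries were scaled by TMM, and all 12 entered one edgeR quasi-likelihood model with a term per group (edgeR 4.0.16, limma 3.58.1, DESeq2 1.42.0, R 4.3.3). Benjamini-Hochberg adjustment ran over the 21698 genes tested, with a threshold of 0.05, and the fit was tested on simulated data. A standard error (SE) comes from the fitted weights and quasi-likelihood variance, and intervals are 95% with 14.4 degrees of freedom. CPM are counts per 1000000 of the scaled library. Counting ratios use exact binomial intervals; reads are not independent molecules.

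Members and gene lists were chosen with earlier results of these data known. Always named were the 10 members and MAPKAPK2; each list adds up to 3 genes of smallest adjusted p per comparison, of which a selection is printed. The genes flanking the chromosome 4 cluster, CXCR1 and the genes at 0 were chosen after values were seen. Genes like CXCL8 and CXCL1 were ranked by log2 CPM (prior count 2); 1 of those like CXCL1 is not reported here. Positions and transcripts are from GENCODE release 29 by symbol, and promoters from RefSeq (GRCh38.p14), with entries for 8 of 10 members (not CCL2 or CCL5). Alternatives changed scaling, filter, test, threshold, samples, replicate block and paralog counting.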

Additional observations from a re-analysis of the deposited data

How the results depend on the processing

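The falls of CXCL8 and CXCL1 in the 4 comparisons, and of CXCL2 and CXCL3 with JQ1 in wild type, kept their direction and passed the threshold in every alternative that tested them. Requiring a mean of at least 1 CPM left 2 chemokines called for JQ1 in wild type (otherwise 4, or 5 with CCL2). It left 2 for the knockout in DMSO (otherwise 3, or 4 with CCL2), because fewer members were tested. The CXCL8 interaction passed with no low-count filter (1 chemokine called), with DESeq2 (1), and without knockout JQ1 replicate 1 (-1.18, adjusted p 0.0414); leaving out libraries gave 0 to 1 calls and values from -1.18 to -0.75. The summed CXCL1, CXCL2 and CXCL3 change with the knockout in JQ1 (-0.97, adjusted p 0.0128) missed a threshold of 0.01, and with only the groups compared it was -0.96 (adjusted p 0.0898); leaving out libraries gave -1.27 to -0.69.

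Values that changed sign were all of effects past no threshold. The CXCL1 interaction was 0.014 with library totals only, 0.0388 with upper-quartile scaling, 0.0131 at a mean of at least 1 CPM and 0.0021 with the replicate block, and -0.33 to 0.28 with libraries left out. Leaving out libraries gave CCL5 -0.2881 to 0.0453 for JQ1 in wild type, CCL2 -0.67 to 1.28 for JQ1 in knockout and CCL20 -0.0914 to 0.7718 for the knockout in DMSO. For the knockout in JQ1 it gave CXCL2 -0.2328 to 0.0850, CXCL3 -0.9276 to 0.0561, CCL2 -1.53 to 1.35, CCL20 -0.89 to 0.65 and CCL5 -0.25 to 0.22, and for the interaction CXCL3 -0.17 to 0.81 and CCL20 -1.22 to 0.32. The cause was not tested.

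No pairing of the libraries by replicate number was seen. The 18 same-numbered pairs correlated between -0.115 and 0.0786, and 1 of 12 libraries correlated best with its own number. With 3 libraries per group this cannot exclude a pairing. With the replicate block CXCL2 for the knockout in DMSO had -0.998 and an adjusted p of 0.08.

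Over all genes, calls for JQ1 in wild type went from 7187 to 4781 at a threshold of 0.01. Calls for the knockout in DMSO went from 1718 to 926 at 0.01, 2619 with only the groups compared and 1092 to 2650 with libraries left out, and for the knockout in JQ1 from 1860 to 965, 922 and 1223 to 2331. For the interaction 29 became 6 at 0.01, 236 with no filter, 116 with DESeq2 and 8 to 88 with libraries left out. With library totals only, the median of all genes was -0.162 for JQ1 in wild type and -0.119 in knockout, and calls split 2298 higher to 5368 lower and 2409 to 5250; for the knockout in DMSO they split 516 to 1158.

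Members with libraries under about 30 counts (CXCL2, CXCL3, CCL20, CCL5, CCL2 outside wild-type DMSO, and CXCL1 in knockout JQ1) are limited by depth.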
